A study of Homo sapiens with 12 samples.

Results

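The genes described here are 9 components and targets of the WNT pathway, taken by symbol from 58735 genes: the ligands WNT7B, WNT5A and WNT5B, the secreted modulators DKK1 and DKK3, the feedback target AXIN2, and the transcription factor genes LEF1, TCF7 and TCF7L2. They were read in RNA of 2 cell lines from anaplastic thyroid carcinoma, an aggressive thyroid cancer that has lost most follicular features. KHM-5M carries BRAF V600E, which keeps the kinase BRAF active, and was grown in RPMI-1640 medium. TTA-1 has wild-type (WT) BRAF and was grown in DMEM, so genotype, line and medium cannot be told apart between the lines. Each line received 1 µM GDC-0994, an inhibitor of the ERK kinases, or the solvent DMSO for 24 hours, giving 4 groups of 3 libraries in the order KHM-5M GDC-0994, KHM-5M DMSO, TTA-1 GDC-0994 and TTA-1 DMSO. All media held 10% fetal bovine serum. Each genotype is represented by 1 line, and the labels do not say whether the libraries of a group came from separate cultures, so the p-values measure only the spread between these libraries. In bulk RNA, fewer cells with a transcript and less of it per cell cannot be told apart.

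WNT proteins are lipid-modified secreted ligands that bind Frizzled receptors. In the canonical branch, a WNT signal releases beta-catenin from a destruction complex built on AXIN and APC, and beta-catenin then enters the nucleus and acts with TCF and LEF factors on target genes such as AXIN2 and LEF1. Ligands such as WNT5A act mainly through noncanonical routes that steer cell polarity and migration, and DKK1 blocks the canonical branch by binding the coreceptors LRP5 and LRP6.

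On GRCh38, with the gene bounds of GENCODE 29, the ligand genes lie apart, WNT7B (ENSG00000188064) at chr22:45920362-45977129 on the minus strand, WNT5A (ENSG00000114251) at chr3:55465715-55490539 on the minus strand and WNT5B (ENSG00000111186) at chr12:1529891-1647243 on the plus strand. The annotation places DKK1 (ENSG00000107984) at chr10:52314296-52318042 on the plus strand and DKK3 (ENSG00000050165) at chr11:11963106-12009769 on the minus strand. It places LEF1 (ENSG00000138795) at chr4:108047545-108168956 on the minus strand, TCF7 (ENSG00000081059) at chr5:134114711-134151865 on the plus strand, TCF7L2 (ENSG00000148737) at chr10:112950250-113167678 on the plus strand and AXIN2 (ENSG00000168646) at chr17:65528563-65561647 on the minus strand.

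The libraries held 14952970 to 18389915 counts assigned to genes. The pair of TTA-1 DMSO libraries 1 and 2 stood farther apart than any other replicate pair, with a chi-square per degree of freedom of 34.8, against 2.35 to 16.7 among the other pairs. Their deviations from the rest of their group ran with GC content across 10966 genes, which are not independent replicates (r = 0.71 for library 1 and -0.68 for library 2). The TTA-1 calls of members and named pathway genes are given below with and without both libraries. Deviations also ran with GC content in KHM-5M GDC-0994 libraries 1 (r = 0.58) and 3 (r = -0.54) and in TTA-1 GDC-0994 library 3 (r = -0.36). Of the 11 thyroid follicular markers, 3 averaged above 1 CPM (a gene's counts over the scaled total of its library) in each KHM-5M group and 2 in each TTA-1 group. PAX8 averaged 120.2 CPM in KHM-5M GDC-0994 cells, against 210.2 CPM in KHM-5M DMSO cells. FOXE1 (1.96 CPM, against 2.46 CPM) and SLC26A4 (0.549 CPM, against 1.03 CPM) were also lower there with GDC-0994. DIO2 went the other way in KHM-5M, with 2.94 CPM, against 0.153 CPM. It averaged 431 CPM in TTA-1 GDC-0994 cells, against 423 CPM in TTA-1 DMSO cells. Thyroglobulin (TG) and DUOX2 were at or near 0 in all groups. The summed level of 6 epithelial markers ranged from 2750.1 to 3038 CPM in KHM-5M GDC-0994 cells, against 2082 to 2129.6 CPM in KHM-5M DMSO cells. The keratin KRT8 averaged 2333 CPM with GDC-0994, against 1537 CPM in DMSO. The other abundant keratins were slightly lower, KRT18 at 472 CPM, against 490 CPM, and KRT7 at 68.0 CPM, against 69.8 CPM. EPCAM (5.69 CPM, against 5.21 CPM) and KRT19 (2.25 CPM, against 1.75 CPM) were low and slightly higher. CDH1 was near 0 in DMSO, at 0.019 CPM, and averaged 1.07 CPM with GDC-0994. The summed level of 7 fibroblast and mesenchymal markers ranged from 3381 to 3855 CPM in KHM-5M GDC-0994 cells, against 2719 to 2828 CPM in KHM-5M DMSO cells, and from 1051 to 1078 CPM in TTA-1 GDC-0994 cells, against 1074 to 1246 CPM in TTA-1 DMSO cells. Of these 7, 4 averaged above 1 CPM in KHM-5M and moved unequally. COL1A1 averaged 1816 CPM in KHM-5M GDC-0994 cells, against 704 CPM in KHM-5M DMSO cells, PDGFRB 95.5 CPM, against 29.8 CPM, and LUM 41.1 CPM, against 4.73 CPM. VIM, the most abundant of them in DMSO, went the other way, with 1589.8 CPM, against 2041 CPM. DCN and COL1A2 stayed below 0.3 CPM. The part of these markers in the results was not tested.

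WNT7B, a ligand that can signal through beta-catenin, fell in KHM-5M. It had 6.49, 5.87 and 6.38 CPM in KHM-5M GDC-0994 libraries, against 79.6, 87.5 and 83.7 CPM in KHM-5M DMSO libraries. The groups lay far apart, and the treated libraries sat within 1 CPM of each other. The log2 fold change was -3.74 ± 0.13 (SE, n = 3 against 3; 95% interval -4.02 to -3.47; edgeR's quasi-likelihood test, adjusted p = 6.40e-13), a 13.4-fold lower level. WNT7B had 7.73, 6.89 and 7.19 CPM in TTA-1 GDC-0994 libraries, against 11.98, 8.68 and 8.01 CPM in TTA-1 DMSO libraries. All treated TTA-1 libraries were below all DMSO ones, but the log2 fold change of -0.39 ± 0.14 was not called (edgeR adjusted p = 0.147). It was -0.48 without TTA-1 DMSO library 2 (edgeR adjusted p = 0.0341), -0.21 without library 1 (0.576), -0.15 without both (0.705) and -0.24 with the trend on gene length and GC content removed (0.295). The GC content of WNT7B, 63.0%, is above that of 93.3% of the genes tested. The responses of the 2 lines differed by -3.35 ± 0.19 (KHM-5M minus TTA-1, edgeR adjusted p = 9.74e-10).

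WNT5A, the classical noncanonical ligand, rose in KHM-5M, where it had 33.7, 37.3 and 39.9 CPM in GDC-0994 libraries and 22.4, 21.9 and 21.8 CPM in DMSO libraries. The groups did not overlap, and the log2 fold change was 0.75 ± 0.11 (95% interval 0.52 to 0.97; edgeR adjusted p = 2.14e-05), or 1.68-fold. In TTA-1, WNT5A was close to the detection limit, with 7, 4 and 5 raw counts in GDC-0994 libraries and 5, 5 and 9 in DMSO libraries. At this depth a change could not be resolved there (log2 fold change -0.18, 95% interval -1.18 to 0.81, edgeR adjusted p = 0.897), and the difference between lines, 0.93 ± 0.46, was not called (edgeR adjusted p = 0.153). The 3 limma fits on FPKM did call it (0.62 to 0.81, adjusted p = 1.51e-04 to 0.00985). They add 1 or 0.1 to FPKM before the log, more than the mean WNT5A level in TTA-1 (0.047 FPKM with GDC-0994 and 0.053 FPKM with DMSO). This shrinks any TTA-1 change and its spread towards 0, so these fits cannot settle the difference.

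WNT5B, the paralog of WNT5A, was present at a like level in all 4 groups. It had 17.1, 14.6 and 15.04 CPM in KHM-5M GDC-0994 libraries, against 19.3, 15.6 and 16.3 CPM in KHM-5M DMSO libraries. In TTA-1 it had 12.5, 14.7 and 13.1 CPM in GDC-0994 libraries, against 16.1, 15.9 and 13.5 CPM in DMSO libraries. Treated and DMSO libraries overlapped in both lines, and neither log2 fold change was called (-0.13, 95% interval -0.39 to 0.12, in KHM-5M and -0.17, 95% interval -0.44 to 0.09, in TTA-1).

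DKK1, the secreted antagonist of LRP5 and LRP6 and itself a known target of beta-catenin, was the one member called in TTA-1. It had 236, 222 and 234 CPM in TTA-1 GDC-0994 libraries, against 322, 356 and 307 CPM in TTA-1 DMSO libraries. The groups did not overlap, and the log2 fold change was -0.51 ± 0.08 (95% interval -0.69 to -0.33; edgeR adjusted p = 0.00205), or 1.42-fold lower. Without TTA-1 DMSO libraries 1 and 2 it was -0.42 (edgeR adjusted p = 0.0228). In KHM-5M, DKK1 had 13.2, 12.7 and 11.8 CPM in GDC-0994 libraries, against 11.6, 12.6 and 9.40 CPM in DMSO libraries, with overlapping groups and a log2 fold change of 0.17 (95% interval -0.06 to 0.40) that was not called. The responses differed by 0.68 ± 0.14 (KHM-5M minus TTA-1, edgeR adjusted p = 0.00117). DKK1 shares 9.61% of its exon bases with PRKG1-AS1, which had 0 to 21 counts per library.

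The promoters of DKK1 and TCF7L2 are shown because DKK1 carries the TTA-1 call and TCF7L2 is the most abundant TCF gene here, and because their 250 bases before the RefSeq start lie outside the gene as GENCODE annotates it. Letters are in capitals where a match to the TCF and LEF motif CTTTGA, the AP-1 motif TGANTCA or the ETS motif CCGGAA was found on either strand. The windows, from RefSeq on GRCh38.p14, are chr10:52314031-52314280 for DKK1 and chr10:112949997-112950246 for TCF7L2, both on the plus strand.
DKK1: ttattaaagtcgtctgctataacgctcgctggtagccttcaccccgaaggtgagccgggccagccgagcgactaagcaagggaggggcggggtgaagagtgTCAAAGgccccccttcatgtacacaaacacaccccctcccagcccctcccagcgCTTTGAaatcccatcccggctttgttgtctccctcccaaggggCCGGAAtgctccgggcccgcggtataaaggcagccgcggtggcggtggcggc
TCF7L2: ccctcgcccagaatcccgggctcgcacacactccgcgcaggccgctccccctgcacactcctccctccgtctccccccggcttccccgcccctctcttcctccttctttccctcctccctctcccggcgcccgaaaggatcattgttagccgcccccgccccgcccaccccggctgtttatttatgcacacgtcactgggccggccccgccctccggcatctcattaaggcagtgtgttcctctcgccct
The DKK1 window held the TCF and LEF motif 2 times, at -149 on the opposite strand (TCAAAG) and at -95 (CTTTGA), and the ETS motif once, at -52, counted from the start. The TCF7L2 window held none of these letters. Windows of 300 bases, 250 before and 50 after a start, were found for 6 of the 9 members, WNT5A, WNT5B, LEF1, TCF7, TCF7L2 and DKK1, in 11 windows in all. Apart from DKK1, 1 window of TCF7 held a match, to the ETS motif at -48. Of 35116 promoters of that length, 12.9% held the TCF and LEF motif, 7.71% the AP-1 motif and 17.2% the ETS motif. A match is a description of the letters and not a binding site.

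DKK3, a secreted relative of DKK1 that is not a typical LRP antagonist, rose in KHM-5M. It had 249.9, 247 and 225 CPM in KHM-5M GDC-0994 libraries, against 188, 191 and 194 CPM in KHM-5M DMSO libraries. The groups did not overlap, and the log2 fold change was 0.33 ± 0.07 (95% interval 0.18 to 0.49; edgeR adjusted p = 0.00140), or 1.26-fold. In TTA-1 the 3 GDC-0994 libraries had 9.87, 9.89 and 10.1 CPM, below the 14.1, 12.6 and 11.1 CPM of the DMSO libraries. That log2 fold change of -0.34 ± 0.10 was not called (edgeR adjusted p = 0.0723). It was -0.16 without TTA-1 DMSO libraries 1 and 2 (edgeR adjusted p = 0.573) and was called without library 2 alone (-0.36, 0.0347) or library 3 alone (-0.43, 0.0488) and with no filter (0.0464). The responses differed by 0.68 ± 0.12 (KHM-5M minus TTA-1, edgeR adjusted p = 5.47e-04).

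**Figure D1:**
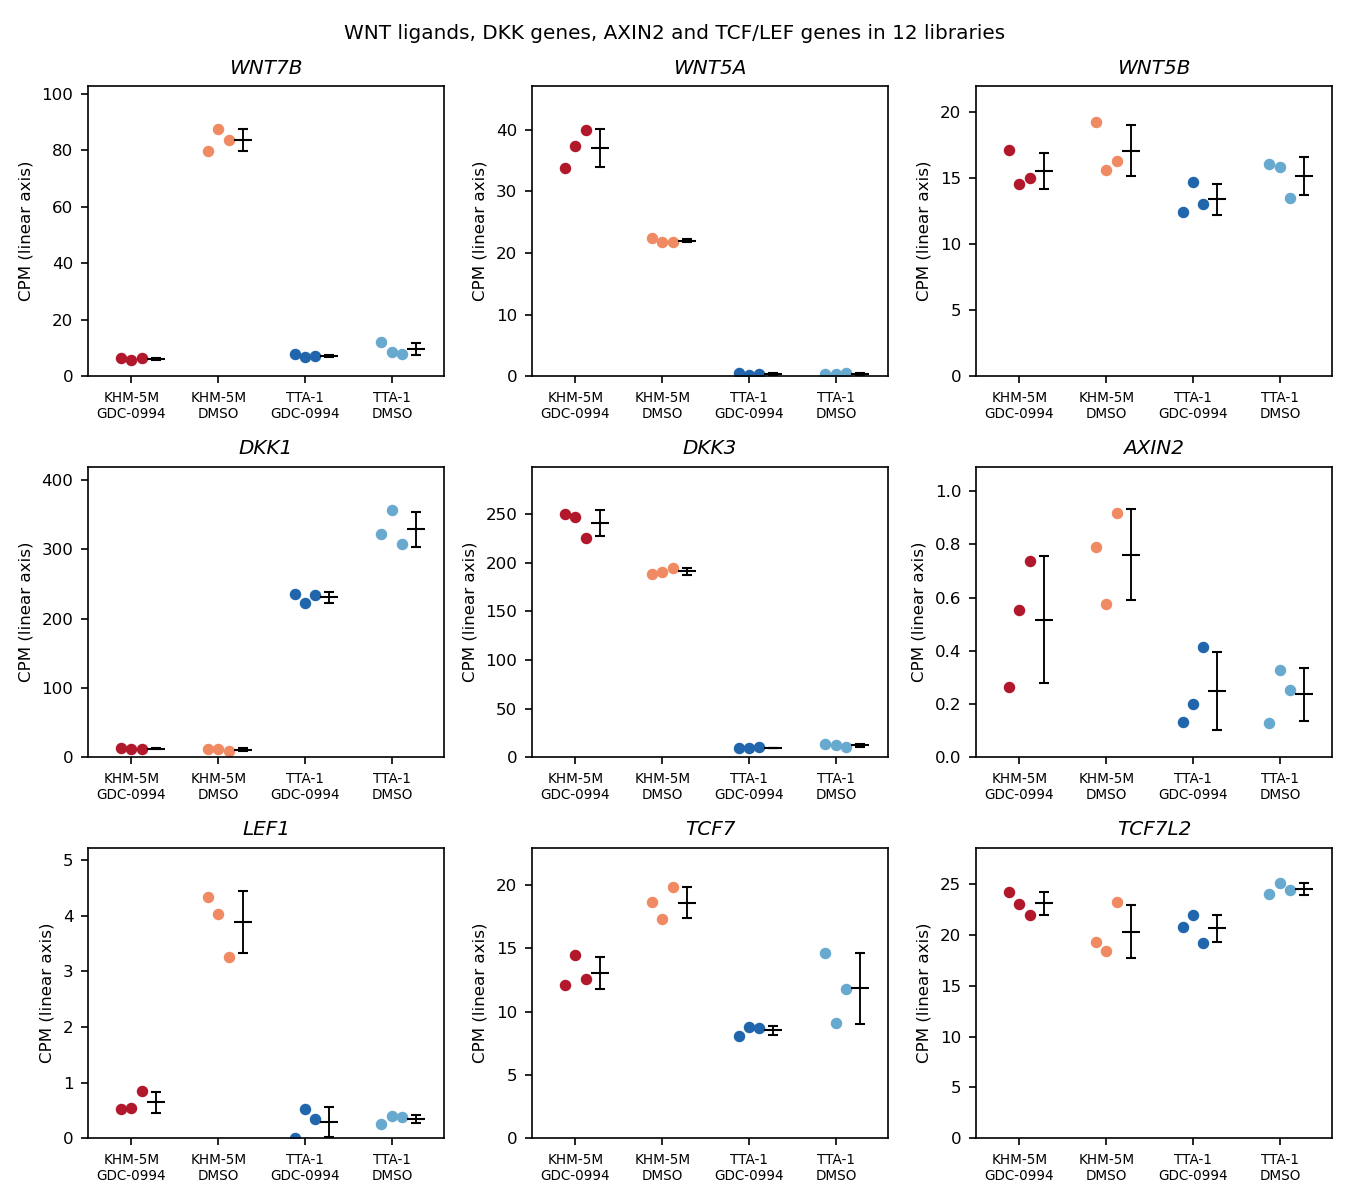
CPM (linear axis from 0) of each of the 9 genes in the 12 libraries, by group, with points for libraries and, beside them, the mean with the SD of 3 libraries in black. WNT7B and LEF1 are high in the KHM-5M DMSO libraries, DKK1 in both TTA-1 groups, and WNT5A and DKK3 in both KHM-5M groups.

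LEF1, a TCF-family factor gene that is itself a target of the canonical branch, fell in KHM-5M. It had 0.527, 0.553 and 0.859 CPM in KHM-5M GDC-0994 libraries, from 10, 10 and 14 raw counts, against 4.34, 4.04 and 3.27 CPM in KHM-5M DMSO libraries, from 77, 70 and 57 raw counts. The groups did not overlap, and the log2 fold change was -2.59 ± 0.38 (95% interval -3.39 to -1.78; edgeR adjusted p = 2.75e-05), or 6.01-fold lower. In TTA-1 LEF1 had 0, 8 and 5 raw counts in GDC-0994 libraries and 4, 6 and 6 in DMSO libraries, too few to resolve a change (95% interval of the log2 fold change -1.61 to 1.15). The difference between lines, -2.36 ± 0.79 (edgeR adjusted p = 0.0353), rests on these counts. It lost its call when TTA-1 GDC-0994 library 2 was left out (log2 difference -1.57, edgeR adjusted p = 0.290) and in 8 other alternatives. These left out KHM-5M GDC-0994 library 1 or 2, KHM-5M DMSO library 1 or 2, TTA-1 GDC-0994 library 3, TTA-1 DMSO library 1 or 3, or TTA-1 DMSO libraries 1 and 2 together (edgeR adjusted p = 0.0583 to 0.110). The genes LEF1 and LEF1-AS1 share 5.20% of the LEF1 exon bases, and since the library kit did not mark strand their reads cannot be told apart there. LEF1-AS1 had 2 to 7 counts in the KHM-5M libraries.

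TCF7, which encodes TCF-1, also fell in KHM-5M, with 12.1, 14.4 and 12.6 CPM in GDC-0994 libraries and 18.7, 17.3 and 19.8 CPM in DMSO libraries. The groups did not overlap, and the log2 fold change was -0.51 ± 0.14 (95% interval -0.82 to -0.21; edgeR adjusted p = 0.00672). In TTA-1 it had 8.07, 8.76 and 8.71 CPM in GDC-0994 libraries, below the 14.7, 9.08 and 11.8 CPM of the DMSO libraries. That log2 fold change, -0.48 ± 0.16, was of like size and was not called (edgeR adjusted p = 0.112). It was called without TTA-1 DMSO library 2 (-0.66, edgeR adjusted p = 0.00384), with no filter (0.0408) and with the length and GC trend removed (-0.45, 0.0467). It was -0.30 without library 1 (0.435) and -0.48 without both (0.165). The difference between lines was -0.04 with a 95% interval of -0.48 to 0.41. The TCF7 exons overlap those of SKP1 on the other strand over 2.09% of their bases, and SKP1 had 3153 to 4753 counts in each library.

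TCF7L2, the gene of TCF-4, was expressed between 18.4 and 25.1 CPM in all libraries. It had 24.3, 23.1 and 22.0 CPM in KHM-5M GDC-0994 libraries, against 19.3, 18.4 and 23.3 CPM in KHM-5M DMSO libraries, with overlapping groups (log2 fold change 0.19, 95% interval -0.03 to 0.41, not called). In TTA-1 it had 20.8, 21.9 and 19.2 CPM in GDC-0994 libraries, below the 24.0, 25.1 and 24.4 CPM of the DMSO libraries (log2 fold change -0.25, 95% interval -0.47 to -0.02, edgeR adjusted p = 0.235). The difference between lines was 0.43 ± 0.15 (edgeR adjusted p = 0.0380) and lost its call in 8 alternatives. Of these, 5 left out KHM-5M GDC-0994 library 1 or 2, KHM-5M DMSO library 1 or 2, or TTA-1 GDC-0994 library 3 (edgeR adjusted p = 0.0609 to 0.0780), and without TTA-1 DMSO libraries 1 and 2 the adjusted p was 0.104. In KHM-5M the change was called without KHM-5M DMSO library 3 (0.32, edgeR adjusted p = 0.0273).

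AXIN2, the destruction-complex scaffold gene widely used as a readout of canonical WNT activity, was barely detected, and 25.2% of its exon bases are shared with AC004805.1, which had no count. AXIN2 had 5, 10 and 12 raw counts in KHM-5M GDC-0994 libraries and 14, 10 and 16 in KHM-5M DMSO libraries. In TTA-1 it had 2, 3 and 6 raw counts in GDC-0994 libraries and 2, 5 and 4 in DMSO libraries. Groups overlapped in both lines. The log2 fold changes of -0.57 (95% interval -1.52 to 0.38) in KHM-5M and 0.06 (95% interval -1.33 to 1.45) in TTA-1 were not called, and in TTA-1 the interval spans a 2-fold change in either direction.

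Counted together, all 9 members passed the filter on low counts. In KHM-5M 2 rose and 3 fell, 5 of 9, against 49.8% of all 16218 genes tested (24.6% higher and 25.1% lower), so the share is near the background. In TTA-1 1 of 9, DKK1, was called, against 3.43% of all genes (1.18% higher and 2.24% lower). The TTA-1 count was 4 of 9 without TTA-1 DMSO library 2, when 2620 genes were called in place of 556, 2 of 9 without library 3 and 1 of 9 without TTA-1 DMSO libraries 1 and 2 together. The response differed between lines for 5 of 9, against 27.9% of all genes (12.3% higher and 15.6% lower), and this count was 3 without TTA-1 DMSO libraries 1 and 2. It was also 3 without KHM-5M GDC-0994 library 1 or 2, KHM-5M DMSO library 1 or 2, or TTA-1 GDC-0994 library 3.

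**Figure D2:**
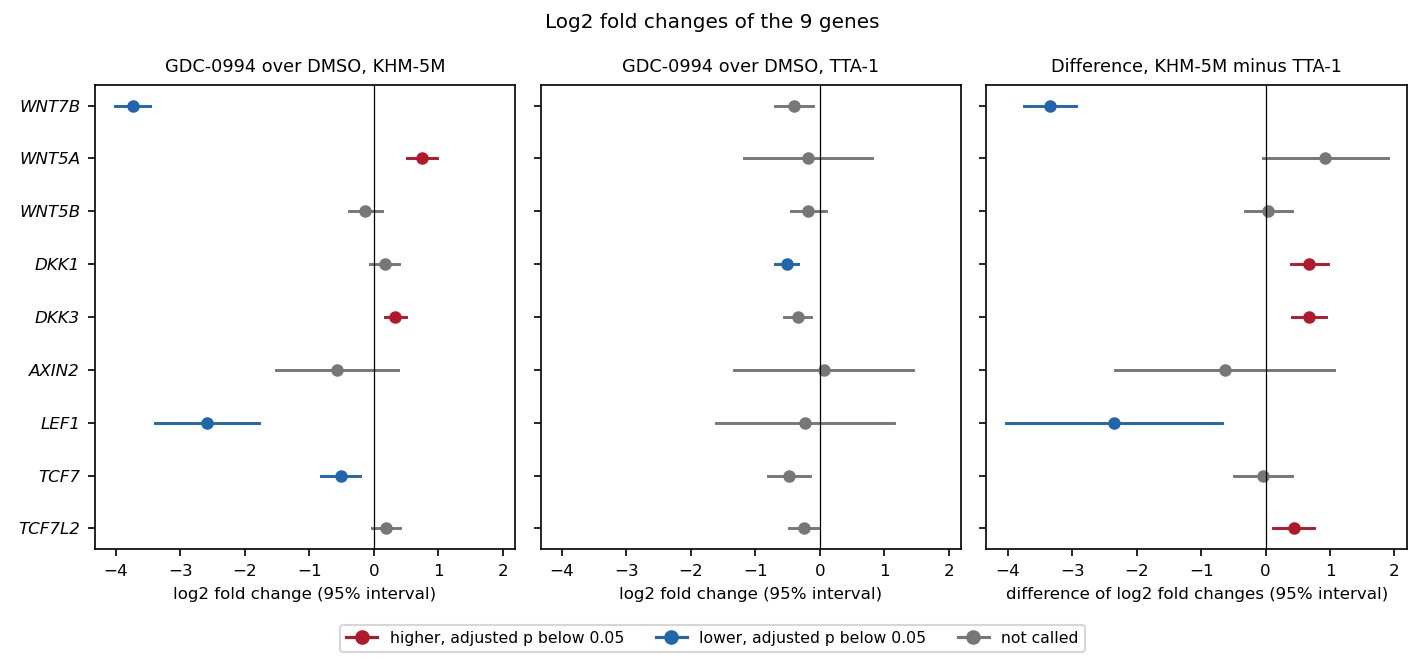
Log2 fold changes of GDC-0994 over DMSO in KHM-5M (left) and TTA-1 (middle), and their difference (right), on a common axis, with points for edgeR estimates from 3 libraries a group and lines for 95% intervals. WNT7B at -3.74 and LEF1 at -2.59 in KHM-5M lie far from 0, while every interval in TTA-1 apart from those of the low-count genes stays above -1.

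Between the lines in DMSO, 8 of 9 members were called, 6 higher and 2 lower in KHM-5M, against 76.5% of all genes (39.6% higher and 36.8% lower). WNT5A was 52.9-fold higher in KHM-5M (mean 22.0 ± 0.31 CPM, against 0.41 ± 0.14 CPM in TTA-1, SD, n = 3 each). DKK3 was 15.1-fold, LEF1 11.04-fold and WNT7B 8.75-fold higher in KHM-5M. DKK1 was 29.3-fold lower in KHM-5M, with 11.2 ± 1.63 CPM against 329 ± 25.2 CPM in TTA-1 (SD, n = 3 each). AXIN2 (log2 1.65) and TCF7 (0.65) were higher and TCF7L2 (-0.27) lower in KHM-5M, and WNT5B was not called (0.17). The TCF7L2 call was lost without KHM-5M DMSO library 1 or 2 or TTA-1 DMSO library 3 (edgeR adjusted p = 0.0524 to 0.129). It was also lost with upper quartile scaling (edgeR adjusted p = 0.143), library totals (0.136), no filter (0.216) and only the groups compared (0.0661). With library totals WNT5B was called (0.27, edgeR adjusted p = 0.0449). Without TTA-1 DMSO libraries 1 and 2 together TCF7L2 (-0.22) and AXIN2 (1.61) lost their calls, and WNT5B was 0.39. With the trend on length and GC content removed, WNT7B was 4.68-fold and DKK3 9.89-fold higher in KHM-5M, and AXIN2 lost its call (0.0854). TCF7 then turned to -0.06 and lost its call (edgeR adjusted p = 0.649), and WNT5B turned to -0.63 and was called lower (5.43e-05). That setting moved the median log2 fold change of all genes by -0.34 and the share of calls that were higher in KHM-5M to 37.5%, against 51.8% as counted here.

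With GDC-0994 in both lines, 4 of 9 members were called, against 80.1% of all genes (41.0% higher and 39.1% lower). WNT5A (100.5-fold), DKK3 (24.2-fold) and TCF7 (1.53-fold) were higher in KHM-5M and DKK1 was 18.3-fold lower. WNT7B, which differed 8.75-fold in DMSO, had a log2 difference of -0.22 (95% interval -0.53 to 0.09; edgeR adjusted p = 0.172). With the length and GC trend removed it was -1.31 (edgeR adjusted p = 2.74e-09), DKK3 was 15.6-fold higher, and WNT5B turned to -0.63 and was called lower (6.96e-05). TCF7 turned to -0.16 and lost its call (edgeR adjusted p = 0.267), TCF7L2 turned to -0.085, the all-gene median moved by -0.33 and the share of higher calls was 38.8%, against 51.2%. LEF1 (1.11) and AXIN2 (1.02) were not called. LEF1 was called with DESeq2 (adjusted p = 0.0412), with no filter (edgeR, 0.0410), with upper quartile scaling (0.0481) and without TTA-1 GDC-0994 library 2 (1.90, 0.0197), and AXIN2 without KHM-5M GDC-0994 library 1 (1.35, 0.0401) or TTA-1 GDC-0994 library 3 (1.62, 0.0398). With upper quartile scaling, which moved the all-gene median by 0.16, 7 of 9 were called.

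Levels of different genes were compared per length, in FPKM, which divides counts by gene length and library total. In KHM-5M GDC-0994 cells DKK3 led at 47.9 ± 3.13 FPKM, followed by DKK1 at 5.74 ± 0.37, WNT5A at 5.03 ± 0.37, WNT5B at 3.64 ± 0.34 and TCF7L2 at 3.45 ± 0.20 (SD, n = 3). TCF7 at 1.303 and WNT7B at 1.24 FPKM came next, ahead of LEF1 at 0.121 and AXIN2 at 0.0994. In KHM-5M DMSO cells the order was DKK3 at 37.2 ± 0.41 FPKM, WNT7B at 16.3 ± 0.72, DKK1 at 5.01 ± 0.75, WNT5B at 3.92 ± 0.47 and TCF7L2 at 2.98 ± 0.36, then WNT5A at 2.94, TCF7 at 1.82, LEF1 at 0.715 and AXIN2 at 0.144. WNT7B thus stood seventh under GDC-0994 and second in DMSO. The library ranges of DKK1 and WNT5A, WNT5B and TCF7L2, TCF7 and WNT7B, and LEF1 and AXIN2 overlapped in KHM-5M GDC-0994 cells, and those of DKK1 and WNT5B and of TCF7L2 and WNT5A in KHM-5M DMSO cells.

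In TTA-1, DKK1 stood alone at the top with 101.3 ± 3.67 FPKM in GDC-0994 cells and 145 ± 11.7 FPKM in DMSO cells (SD, n = 3 each). WNT5B followed at 3.02 and TCF7L2 at 2.97 FPKM in GDC-0994 cells, with 3.42 and 3.53 FPKM in DMSO cells, their ranges overlapping in both groups. DKK3 had 1.91 and 2.42 FPKM, WNT7B 1.39 and 1.84 FPKM and TCF7 0.819 and 1.14 FPKM in GDC-0994 and DMSO cells, and DKK3 and WNT7B overlapped in DMSO cells. LEF1, WNT5A and AXIN2 were at or below 0.0624 FPKM in both groups and could not be ranked.

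The 3 ligands were set against the other WNT genes. The summed level of the 19 WNT ligand genes was 14.7 ± 0.57 FPKM in KHM-5M GDC-0994 cells, against 27.1 ± 0.25 FPKM in KHM-5M DMSO cells (SD, n = 3 each). In TTA-1 it was 13.7 ± 1.06 FPKM with GDC-0994 and 15.1 ± 0.57 FPKM with DMSO. WNT7B made up 8.45% of the sum in KHM-5M GDC-0994 cells, against 60.4% in KHM-5M DMSO cells, WNT5A 34.3%, against 10.9%, and WNT5B 24.7%, against 14.5%, although the level of WNT5B was not called different. In TTA-1 WNT7B made up 10.3% with GDC-0994 and 12.1% with DMSO, and WNT10B was the most abundant ligand, at 4.70 and 5.54 FPKM. WNT5B held 22.1% of the sum in TTA-1 GDC-0994 cells, against 22.6% in TTA-1 DMSO cells. The ligands WNT7A and WNT8A had no count in any library.

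**Figure D3:**
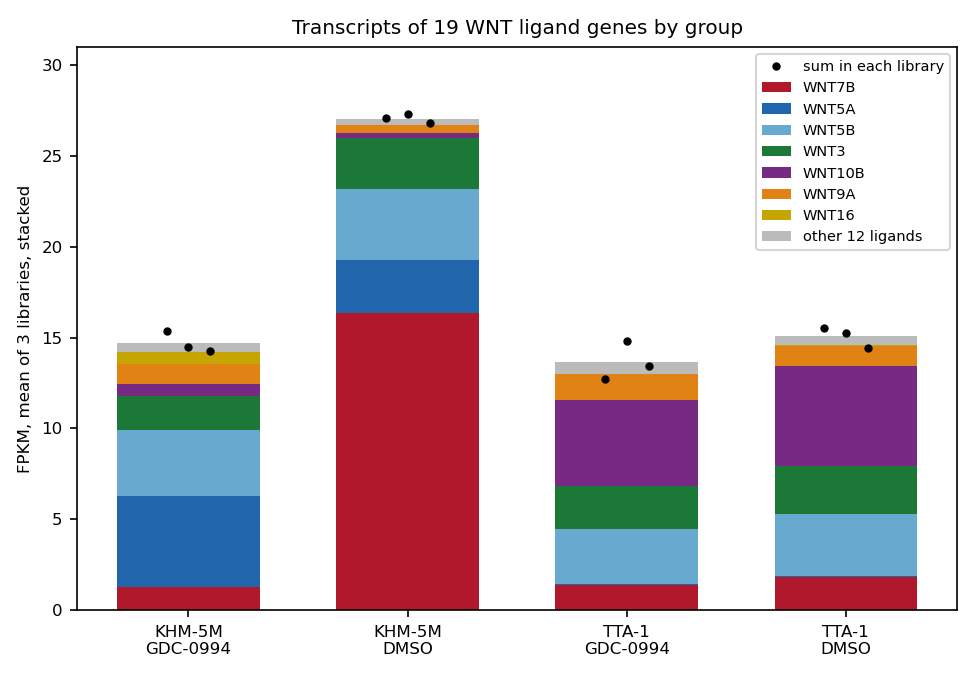
Mean FPKM of the WNT ligand genes, stacked by gene, in each group, with black points for the sums over all 19 ligands in single libraries. The KHM-5M DMSO bar, at 27.1 FPKM, is mostly WNT7B, and the other 3 bars lie between 13.7 and 15.1 FPKM.

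The genes whose pattern over the 12 libraries was most like that of WNT7B, by the root mean square difference of centred log2(CPM + 1), were TOX2 (0.19), VGF (0.23), EMP1 (0.23), PLXNA4 (0.33) and ACOX2 (0.38). TOX2 averaged 6.43, 72.1, 6.33 and 8.66 CPM in KHM-5M GDC-0994, KHM-5M DMSO, TTA-1 GDC-0994 and TTA-1 DMSO cells. The genes most like DKK1 were SERPINB2 (0.13), RPE65 (0.15), SUN3 (0.19), ANKRD1 (0.20) and KYNU (0.21). ANKRD1 averaged 11.9, 7.85, 205 and 263 CPM in the same groups. SERPINB2 and RPE65 averaged 0 CPM in both KHM-5M groups, and SUN3 0.128 CPM with GDC-0994 and 0.0376 CPM with DMSO there. In TTA-1 these genes averaged 17.1 to 24.5 CPM, far below DKK1. PLXNA4 averaged 0 CPM in both TTA-1 groups. For such genes the likeness depends on the 1 added to CPM before the log. Likeness here is a description over 12 libraries that share 4 groups.

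The remaining pathway was read from 127 genes in 8 lists by role, of which 95 passed the filter. In KHM-5M 30 rose and 23 fell, or 55.8% of those tested, with a median log2 fold change of 0.10, against 49.8% of all genes and a median of 0.02. In TTA-1 2 rose and 7 fell, or 9.47%, against 3.43% of all genes, with medians of -0.02 and 0.01. The TTA-1 count was 8 without TTA-1 DMSO libraries 1 and 2, 23 without library 2 alone and 5 without library 3 or without TTA-1 GDC-0994 library 3. In KHM-5M, the list of other WNT target genes had 10 of 17 lower and 3 higher, or 76.5% called, with a median of -0.66, and the list of noncanonical and planar polarity genes had 8 of 16 higher and 3 lower, or 68.8%, with a median of 0.25.

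Among the other ligands in KHM-5M, 3 of 6 rose and 1 fell, against 49.8% of all genes called (24.6% higher and 25.1% lower). WNT16 averaged 2.12 CPM with GDC-0994, against 0.134 CPM with DMSO (log2 fold change 3.92 ± 0.49), and WNT9A 4.34 CPM, against 1.70 CPM (1.35 ± 0.23). WNT3, a canonical ligand, fell by 0.61 on the log2 scale. PORCN, the enzyme that attaches the lipid to WNT proteins, rose by 1.51, with 7.71 CPM under GDC-0994 and 2.72 CPM in DMSO, while the WNT carrier WLS fell by 0.40. These were 2 of the 5 secretion genes tested, or 40.0%, below the 49.8% of all genes.

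Of the 15 receptors and coreceptors tested in KHM-5M, 4 rose and 3 fell, or 46.7%, near the 49.8% of all genes. The Frizzled receptor genes moved in both directions. FZD8 averaged 0.426 CPM in GDC-0994 cells, against 4.28 CPM in DMSO cells (log2 fold change -3.29 ± 0.31), and FZD1 7.44 CPM, against 29.1 CPM (-1.97 ± 0.13). FZD6 averaged 129 CPM, against 83.9 CPM (0.62 ± 0.10), and FZD2 101 CPM, against 64.3 CPM (0.65 ± 0.12). All 4 passed the edgeR threshold in KHM-5M. Of the 4 secreted inhibitors tested, SOST, which binds LRP5 and LRP6, was the 1 called, at 0.686 CPM under GDC-0994, against 0.0752 CPM from 4 counts in DMSO.

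In the noncanonical list, PRICKLE1, a core planar polarity gene, rose by 2.55 ± 0.12 on the log2 scale, with 72.1 ± 6.52 CPM in KHM-5M GDC-0994 cells, against 12.3 ± 0.55 CPM in KHM-5M DMSO cells (SD, n = 3 each; edgeR adjusted p = 2.55e-11). CELSR2, a planar polarity cadherin gene, rose by 0.87. VANGL1, another core polarity gene, fell by 0.98 on the log2 scale and SCRIB fell by 0.93 on the log2 scale.

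Of the 18 genes for Dishevelled, the destruction complex and beta-catenin, 5 rose and 3 fell in KHM-5M, or 44.4%, near the 49.8% of all genes. The kinase gene GSK3B (0.41) and the tankyrase gene TNKS2 (0.47) were higher, and AXIN1 (-0.62) and DVL1 (-0.73) were lower. CTNNB1, the gene of beta-catenin, was not called, at 484 CPM in GDC-0994 cells and 453 CPM in DMSO cells. Among 14 nuclear cofactors 5 rose and 2 fell, or 50%, again near that share, and the Groucho-type corepressors split. TLE4 rose by 1.31 ± 0.09, with 65.5 CPM in GDC-0994 cells and 26.3 CPM in DMSO cells, and the repressor HBP1 rose by 0.76. TLE3 fell by 1.19 on the log2 scale and TLE2 fell by 1.08 on the log2 scale, a call lost in 2 of 22 alternatives.

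Among the other target genes in KHM-5M, the WNT deacylase NOTUM had 97 counts in the 3 GDC-0994 libraries and 2 in the 3 DMSO libraries, a ratio of 47.8 (95% counting interval 12.9 to 400.0). The Notch ligand gene JAG1 rose by 0.71. The cyclin gene CCND1 averaged 79.4 ± 5.03 CPM in GDC-0994 cells, against 529.6 ± 18.6 CPM in DMSO cells (SD, n = 3 each; log2 fold change -2.74 ± 0.08, edgeR adjusted p = 1.02e-13). The adhesion gene CD44 averaged 178 CPM in GDC-0994 cells, against 666 CPM in DMSO cells (-1.90 ± 0.06). LGR5, an R-spondin receptor gene singled out after its values were seen, had no count in the 3 GDC-0994 libraries and 61 in the 3 DMSO libraries, at least 20.6-fold lower against a floor of 3 counts over the group. The list median of -0.66 is the same with LGR5 at that bound. Several genes of this list, among them CCND1, FOSL1 and MYC, are also known to respond to ERK signalling through other factors. The part of such factors in these values was not tested.

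In TTA-1 the 9 called genes outside the members were CELSR2 and WISP2, which rose, and TPBG, DVL1 and 5 target genes, which fell. FOSL1, an AP-1 subunit gene, had a log2 fold change of -1.59 ± 0.17, with 76.6 ± 16.5 CPM in GDC-0994 cells and 231 ± 64.6 CPM in DMSO cells (SD, n = 3 each). CCND1 had -0.70 ± 0.07, with 134 CPM against 218 CPM. WISP2 rose by 1.28 ± 0.34 (edgeR adjusted p = 0.0479), CELSR2 by 0.67 ± 0.17 and TPBG, whose product restrains canonical signalling, fell by 0.52 on the log2 scale. DVL1 fell by 0.55 on the log2 scale. Without TTA-1 DMSO libraries 1 and 2 the calls of FOSL1 (-1.75), CCND1 (-0.61), TPBG (-0.48) and DVL1 (-0.55) held, and both rises lost theirs (CELSR2 0.84, edgeR adjusted p = 0.0527, and WISP2 1.22, 0.255). CELSR2 lost its call in 13 of 25 alternatives and WISP2 in 9 of 22, among them each that left out a TTA-1 GDC-0994 library or TTA-1 DMSO library 3. CELSR2 also lost it without KHM-5M GDC-0994 library 2 or KHM-5M DMSO library 1 or 2, and WISP2 without KHM-5M GDC-0994 library 3, KHM-5M DMSO library 2 or 3, or TTA-1 DMSO library 1. DVL1 lost its call in 4 of 25, among them without TTA-1 DMSO library 3 (0.0536) or TTA-1 GDC-0994 library 3 (0.0826).

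**Figure D4:**
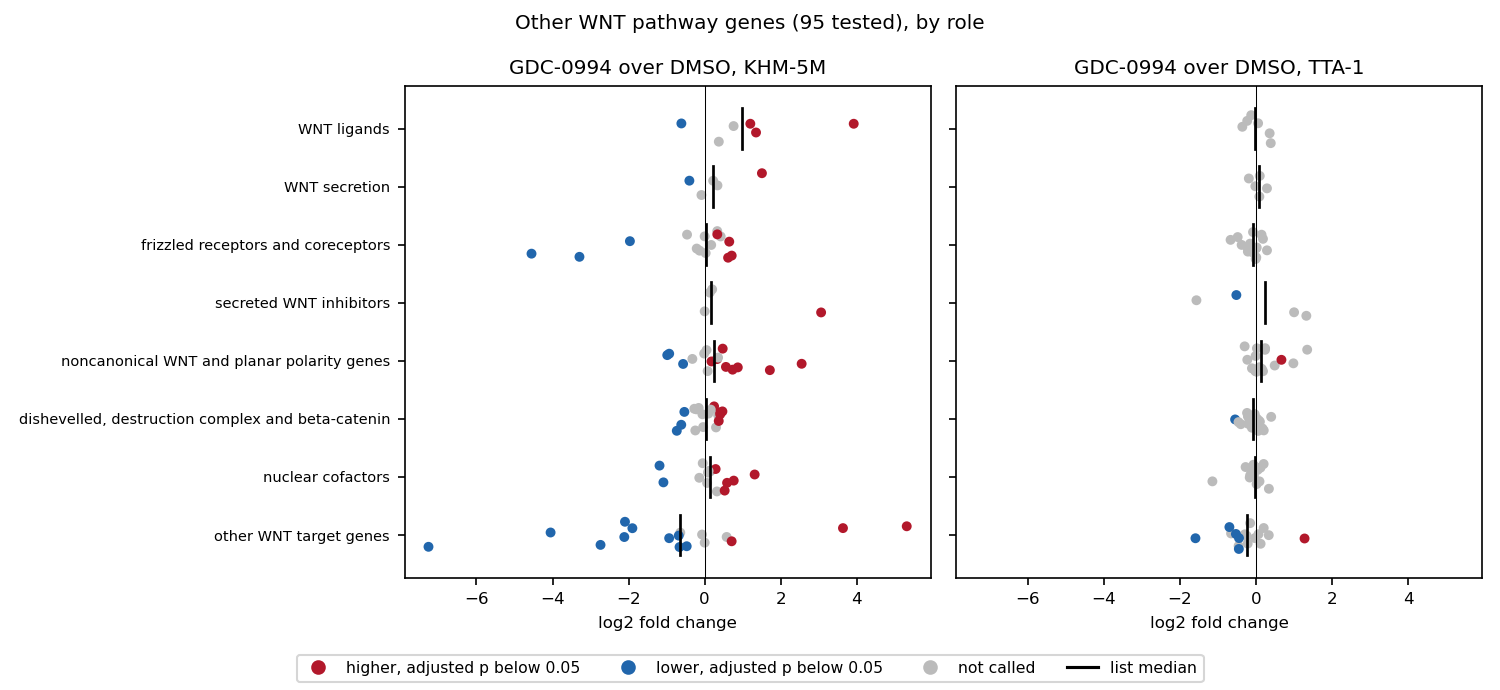
Log2 fold changes of GDC-0994 over DMSO for the 95 other pathway genes tested, by role, in KHM-5M (left) and TTA-1 (right), with a point for each gene, jittered vertically within its list, and a black line for the list median. Calls in KHM-5M run in both directions in most lists, and the target genes have a median of -0.66.

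Between the lines in DMSO, 51 of the 95 genes were higher and 30 lower in KHM-5M, or 85.3%, against 76.5% of all genes. With the length and GC trend removed, 37 were higher and 42 lower. Over all genes the balance turned as well, to 4814 higher and 8023 lower, against 6430 and 5975 before. The setting moved the all-gene median by -0.34, so the turn is not particular to these genes. Of the 6 other ligands tested, the 3 called were lower in KHM-5M, among them WNT10B (-4.22 ± 0.21 on the log2 scale) and WNT10A, with 1 count in KHM-5M DMSO libraries and 44 in TTA-1 DMSO libraries (ratio of TTA-1 to KHM-5M 49.8, 95% counting interval 8.48 to 2011). PORCN was 15.4-fold and TMED5 3.84-fold lower in KHM-5M, and WLS 1.22-fold higher, a call lost with the trend removed (log2 -0.06, edgeR adjusted p = 0.429). That setting also moved WNT10B to -5.00 on the log2 scale, PORCN to 26.3-fold, APC2 to 5.24-fold, CHD8 to 2.02-fold and MYC to 9.06-fold lower, and KREMEN1 to log2 2.00, CELSR3 to 4.73-fold, VANGL2 to 58.4-fold and BCL9 to 2.94-fold higher in KHM-5M. The R-spondin gene RSPO4, whose product amplifies WNT signals, had 1360 counts in KHM-5M DMSO libraries and none in TTA-1 DMSO libraries, at least 401-fold higher against a floor of 3 counts over the group. SFRP4, a secreted WNT-binding inhibitor gene, had no count in KHM-5M DMSO libraries and 36 in TTA-1 DMSO libraries, at least 13.6-fold lower by the same floor.

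The receptor and inhibitor lists held differences in both directions in DMSO. KREMEN1, a DKK1 receptor gene, was 6.55-fold higher in KHM-5M, while FZD5 (2.17-fold) and FZD3 (2.71-fold) were lower. The inhibitor genes TPBG (2.06-fold) and FRZB (5.51-fold) were higher and SOST 16.8-fold lower, the FRZB call being lost in 1 of 22 alternatives. Of the noncanonical genes, VANGL2 averaged 33.4 CPM in KHM-5M and 0.367 CPM in TTA-1, CELSR3 80.9 and 8.64 CPM, ROR1, a WNT5A receptor gene, 18.5 and 114 CPM, and DAAM1 19.5 and 102 CPM. CTNNB1 was 2.31-fold and CSNK1A1 4.51-fold higher in KHM-5M, and AMER1 3.05-fold and APC2 2.53-fold lower. TLE4 was 17.4-fold and BCL9 4.46-fold higher and CHD8 1.28-fold lower. Among the targets, TBX3 (98.2-fold) and SOX9 (23.8-fold) were higher in KHM-5M, and MYC (5.96-fold) and JAG1 (4.20-fold) were lower.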

How the data were processed

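RNA was measured in 12 libraries. Per the submitters' processing notes, CASAVA, HISAT2 2.0.5 and featureCounts 1.5.0-p3 were named with the build GRCh38; their settings are not given in the sources used here. The deposited counts are raw counts per gene and library. The deposited FPKM values are counts that the authors divided by gene length and by a library size, and they followed from the counts within a relative error of 4.85e-07. Per the labels' protocols, the kit did not mark strand.

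Counts were fitted with edgeR 4.0.16 in R 4.3.3: filterByExpr (minimum count 10, minimum total 15), TMM scaling, a mean per group over all 12 libraries (8 residual degrees of freedom) and quasi-likelihood tests, adjusted by Benjamini-Hochberg over 16218 genes. Genes with an adjusted p under 0.05 were called; only these are described as rising or falling. CPM used TMM-scaled library sizes. Standard errors and 95% intervals were derived from the fold change and its p-value. Intervals on counts cover counting error only. The procedure was tested on simulated data. No sign was found that replicate numbers pair the libraries: correlations of library deviations were -0.05 to 0.05 for shared numbers and -0.11 to 0.12 for others. With 3 libraries a group this check cannot exclude pairing. In the labels, the KHM-5M samples given GDC-0994 share 1 column name, so columns were assigned by the number in each title.

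Members and lists were chosen with earlier results of these data known. Beyond the members, up to 2 genes called higher and 2 called lower per list and comparison were named, by smallest p, with the 5 genes nearest in pattern to WNT7B and to DKK1. Alternatives were other scalings, DESeq2 1.42.0, other filters, fits restricted to the compared groups, a replicate block, and limma 3.58.1 on log2(FPKM + 1) and log2(FPKM + 0.1). Further ones removed a length and GC trend from the counts or left out single libraries. Leaving out TTA-1 DMSO libraries 1 and 2 together was chosen after seeing the data. Gene positions and overlaps are from GENCODE 29.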

Additional observations from a re-analysis of the deposited data

Results flagged for a closer look

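The response to GDC-0994 differed between KHM-5M and TTA-1, by edgeR's quasi-likelihood test of the difference itself, for 5 of the 9 members. The share over all genes was 27.9%, and the member count was 3 to 5 with 1 library left out. On the log2 scale (KHM-5M minus TTA-1), the difference was -3.35 for WNT7B (adjusted p = 9.74e-10), -2.36 for LEF1 (adjusted p = 0.0353), 0.43 for TCF7L2 (adjusted p = 0.0380), 0.68 for DKK1 (adjusted p = 0.00117) and 0.68 for DKK3 (adjusted p = 5.47e-04). For WNT7B the log2 fold changes were -3.74 in KHM-5M and -0.39 in TTA-1, where the change was not called (edgeR adjusted p = 0.147). For DKK3 the log2 fold changes were 0.33 in KHM-5M and -0.34 in TTA-1, again not called there (edgeR adjusted p = 0.0723). Without TTA-1 DMSO libraries 1 and 2 the TTA-1 values were -0.15 for WNT7B and -0.16 for DKK3. The LEF1 and TCF7L2 differences lost their calls in 9 and 8 alternatives.

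Of the 95 other pathway genes tested, 32 differed in response between the lines, or 33.7%, against 27.9% of all genes. Among them were 20 of those named in a treatment comparison, a set chosen for its calls within a line, with edgeR adjusted p-values between 2.83e-10 and 0.0353. The log2 response was more positive in KHM-5M for FZD6 (0.47), TPBG (0.71), JAG1 (0.74), HBP1 (0.75), FZD2 (0.80), WNT9A (0.96), TLE4 (1.11), PORCN (1.69), PRICKLE1 (2.53) and NOTUM (5.19). It was more negative in KHM-5M for FZD8 (-2.62), FOSL1 (-2.46), CCND1 (-2.04), FZD1 (-1.89), CD44 (-1.45), TLE3 (-1.07), VANGL1 (-1.07), SCRIB (-0.63), AXIN1 (-0.41) and WLS (-0.38).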

How the results depend on the processing

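Of 1080 recomputed member values, 1006 kept direction and side of the threshold, 27 lost a call, 25 gained one and 22 turned direction. The KHM-5M calls of WNT7B, WNT5A, LEF1, TCF7 and DKK3 and the TTA-1 call of DKK1 held in every alternative that gave a value. TTA-1 counts moved most. All-gene calls there numbered 915 with DESeq2, 1206 with no filter, 206 with only the groups compared, 975 with the length and GC trend removed and 259 to 2620 with 1 library left out (349 without TTA-1 DMSO library 1, 311 without library 3, 311 without TTA-1 GDC-0994 library 2 and 259 without library 3). Member calls in TTA-1 numbered 3 with no filter, 2 with the trend removed and 1 to 4 with 1 library left out. Pathway calls in TTA-1 numbered 15 with no filter, 5 on log2(FPKM + 0.1) and 5 to 23 with 1 library left out. Members differing in response numbered 3 to 5 with 1 library left out and 3 without TTA-1 DMSO libraries 1 and 2. Under GDC-0994, 7 members differed between lines with upper quartile scaling, and 4 to 5 with 1 library left out. The cause was not tested, except that with only the groups compared 4 residual degrees of freedom remain.

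The cause of the turned directions was not tested either. The TTA-1 log2 fold changes ranged with 1 library left out from -0.50 to 0.35 for AXIN2, from -0.42 to 0.13 for WNT5A and from -0.99 to 0.34 for LEF1, and AXIN2 was -0.029 without TTA-1 DMSO libraries 1 and 2. The difference in response was 0.030 for TCF7 with upper quartile scaling and 0.00062 with library totals, and ranged from -0.17 to 0.17 with 1 library left out. It was -0.14 for WNT5B without TTA-1 DMSO libraries 1 and 2, and -0.032 to 0.18 with 1 library left out. With the trend removed, the log2 difference between lines in DMSO was -0.63 for WNT5B and -0.062 for TCF7, and under GDC-0994 it was -0.63 for WNT5B, -0.16 for TCF7 and -0.085 for TCF7L2. AXIN2 lost its call between lines in DMSO with the trend removed (log2 1.06, edgeR adjusted p = 0.0854) and without TTA-1 DMSO libraries 1 and 2 (0.105).

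A replicate block, though the numbers were not found to pair libraries, called 5 members for GDC-0994 in KHM-5M and 1 for GDC-0994 in TTA-1. Of the 16218 genes tested it called 7849 and 529. It called 4 members for the difference in response, against 4225 of all genes, and TCF7L2 lost its call there (edgeR adjusted p = 0.0658). Between lines it called 8 members in DMSO, against 12419 of all genes. Under GDC-0994 it called 4, against 6632 of all genes higher and 6382 lower. No value for the difference exists with only the groups compared. Counts under 10 per library limit AXIN2, WNT5A and LEF1 in TTA-1, and counts of 5 to 16 per library limit AXIN2 in KHM-5M.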
